A study of Mus musculus with 6 samples.

Results

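The TREM receptors, the related CD300 receptors and the adaptor DAP12 were examined in tumor-associated macrophages (TAMs) through 8 genes, namely Trem1, Trem2, Trem3, Treml4, Tyrobp, Cd300a, Cd300lb and Cd300lf. They were selected by symbol, and each matched 1 row of a table of 39179 genes. All 8 passed the filter on low counts, as did 8793 genes in all. TAMs were sorted from subcutaneous tumors of a Braf-mutant mouse melanoma cell line in C57BL/6 mice, with hosts 8 weeks old. The sort took live CD45+ CD11b+ F4/80+ cells that were low or negative for Ly6C and negative for NK1.1 and Ly6G. In the Ptgs-competent group the injected tumor cells were wildtype, and in the Ptgs-deficient group they lacked Ptgs1 and Ptgs2, the genes of the cyclooxygenases COX-1 and COX-2, after CRISPR/Cas9 editing. Hosts were not edited, so the macrophages had the host genotype in both groups and all differences below are between macrophages from 2 kinds of tumor. Each group has 3 libraries, and each library came from a pool of 10 tumors.

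DAP12, the product of Tyrobp, is a short membrane adaptor with almost no extracellular part. Receptors that lack signaling motifs of their own bind it through a lysine inside the membrane that pairs with an aspartate in DAP12, and Src family kinases then phosphorylate its ITAM (immunoreceptor tyrosine-based activation motif), on which the kinase SYK docks. TREM1 is known for amplifying inflammatory responses of monocytes and neutrophils, TREM2 for sensing lipids and dying cells in tissue and tumor macrophages, and CD300 receptors for recognizing lipids on cell surfaces, some through DAP12 and others through inhibitory ITIMs that recruit phosphatases. The comparison asked whether macrophages from tumors whose cancer cells lack both cyclooxygenases carried a different set of these receptors.

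The coding sequences of the genes were searched for these features. In each one the most hydrophobic window of 19 residues was located, leaving out the first 30 residues, where signal peptides lie. Its 57 coding bases are printed 5′ to 3′ on the coding strand of GRCm38, and capitals mark the codon of a charged residue. A lysine, aspartate or glutamate in this window is common, being found in 63.3% of 21459 mouse coding sequences searched alike, whether or not the protein spans a membrane. The 5 receptors that hold a lysine codon (AAG) there are listed first. Trem1 lies at chr17:48244568-48244624, Trem2 at chr17:48351777-48351833, Trem3 at chr17:48257899-48257955 and Treml4 at chr17:48272750-48272806, all on the plus strand, and Cd300lb at chr11:114924995-114925051 on the minus strand.
Trem1: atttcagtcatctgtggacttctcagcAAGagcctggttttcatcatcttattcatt
Trem2: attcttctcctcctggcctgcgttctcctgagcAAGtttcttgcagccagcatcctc
Trem3: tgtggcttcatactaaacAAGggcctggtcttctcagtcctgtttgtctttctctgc
Treml4: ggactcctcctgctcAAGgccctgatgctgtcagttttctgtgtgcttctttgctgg
Cd300lb: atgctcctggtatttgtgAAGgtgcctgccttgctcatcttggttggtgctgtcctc

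The partner window of the adaptor holds an aspartate codon (GAC), at chr7:30414545-30414601 on the plus strand. The windows of Cd300a, at chr11:114897729-114897785 on the plus strand, and of Cd300lf, at chr11:115120304-115120360 on the minus strand, hold no codon for lysine, aspartate or glutamate and are shown for contrast.
Tyrobp: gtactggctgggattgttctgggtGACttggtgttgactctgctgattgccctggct
Cd300a: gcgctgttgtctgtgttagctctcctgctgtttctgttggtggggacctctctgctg
Cd300lf: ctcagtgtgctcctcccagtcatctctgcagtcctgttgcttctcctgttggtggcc

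Tyrosine motifs were searched next. An ITAM was searched as a tyrosine, any 2 residues and a leucine or isoleucine, repeated after 6 to 8 residues. It was found only in Tyrobp among the 8, at residues 92 to 106 of 114, and in 2.86% of the 21459 coding sequences. Its codons cross the junction of exons 4 and 5 (chr7:30415670-30417382), with both tyrosine codons in capitals.
Tyrobp ITAM: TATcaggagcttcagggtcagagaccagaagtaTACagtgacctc

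ITIM-like motifs, of 6 residues with a tyrosine at the third, were searched behind the hydrophobic window, with isoleucine, leucine, valine or serine first and leucine, isoleucine or valine last. Such a motif is common, being found in 26.3% of the 21459 sequences. Cd300a and Cd300lf hold 2 each, and the lysine-bearing receptors hold 0. The motif found in Tyrobp, at residues 90 to 95, overlaps its ITAM. Cd300a has its motifs at chr11:114899846-114899863 and chr11:114901147-114901164 on the plus strand, and Cd300lf at chr11:115117648-115117665 and chr11:115117112-115117129 on the minus strand.
Cd300a motif nearest the membrane: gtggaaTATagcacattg
Cd300a motif farther from the membrane: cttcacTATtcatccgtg
Cd300lf motif nearest the membrane: ctctgtTATgcagacctg
Cd300lf motif farther from the membrane: gtttcaTATgccgctctg

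Behind the window the inhibitory receptors have the longest tails, 114 residues in Cd300a and 127 in Cd300lf. The lysine-bearing receptors have 7 residues there in Trem1, 22 in Trem3, 33 in Cd300lb, 37 in Trem2 and 41 in Treml4. The 4 TREM genes lie within 121380 bases of chromosome 17 and the 3 CD300 genes within 243952 bases of chromosome 11, while Tyrobp (chr7:30413760-30417585) stands on its own next to Hcst, which encodes the related adaptor DAP10.

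Libraries held 4431184 to 8760679 counts, with 7794 to 10714 genes detected, and the 8 genes took 0.134% to 0.191% of the counts. Libraries of a group differed strongly, with a common biological coefficient of variation of 1.26. All 12 macrophage markers were detected, and their summed level was 20145, 20391 and 7602 CPM (counts scaled for library size by TMM) in Ptgs-competent replicates 1, 2 and 3 and 25610 to 31050 CPM in the Ptgs-deficient libraries. Ptgs-competent replicate 3 stands apart, since it also had the highest sum of the 14 melanoma and stroma markers, at 1043 CPM, against 413 and 481 CPM in replicates 1 and 2 and 107 to 128 CPM in the Ptgs-deficient libraries. The melanocyte genes Mlana, Pmel, Dct, Tyr, Tyrp1 and Sox10 were at 0 in every library. Mitf, of the same list, went against the sum, at 1.91, 0 and 0.65 CPM against 10.6, 44.3 and 18.2 CPM. The content of tumor cell RNA was not tested. The 8 platelet markers summed to 5810 to 11820 CPM against 2618 to 3249 CPM, nearly all from Pf4 and Ppbp, with Gp9, Gp1bb, Gp6, Treml1 and Clec1b at 0. The 10 dendritic cell markers summed to 169 to 393 CPM against 391 to 522 CPM, with Zbtb46, Xcr1 and Ccr7 at 0. Most of this sum was Bst2, at 181, 377 and 127 CPM against 370, 513 and 380 CPM, so it says little about the other markers. The 8 mast cell and basophil markers summed to at most 12.4 CPM against 47.4 CPM. As these are bulk samples, fewer cells of a type and less RNA per cell cannot be told apart.

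Over all genes, the edgeR quasi-likelihood test called 19 of 8793, or 0.216%, taking an FDR of at most 0.05 and a log2 fold change of at least 1.5 either way as thresholds. Adjusted p below are those of this test. Of the 8 genes, 0 were called by this test, and likewise 0 by the likelihood ratio test of edgeR, by DESeq2 and by limma voom. At an unadjusted p under 0.05 there was 1 of the 8 (Trem1), against 8.83% of all genes tested. The groups did not overlap in CPM for 1 of the 8 (Cd300lb), against 19% of all genes tested. Without Ptgs-competent replicate 3 these counts were 0 called, 2 at an unadjusted p under 0.05 and 2 not overlapping (Cd300lb and Trem1), against 8.86% and 28.5% of 9741 genes, whose median log2 fold change was then 0.13. The median log2 fold change, Ptgs-deficient over Ptgs-competent, was 0.05 for the 8 genes and 0.02 for all genes tested, with 4 genes fitted higher and 4 lower.

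Tyrobp (ENSMUSG00000030579), the adaptor, was by far the most abundant of the 8. Its level was 1313, 996 and 918 CPM in Ptgs-competent replicates 1, 2 and 3 and 950.3, 1104 and 1411 CPM in the Ptgs-deficient replicates. The ranges overlapped almost fully, and the lowest library of either group lay above every library of every other gene of the 8. The means were 1076 ± 209 and 1155 ± 235 CPM (SD, n = 3 each). The fitted log2 fold change was 0.10 ± 0.30 (SE), the 95% interval -0.57 to 0.78 and the adjusted p 0.9995. This interval lies within the fold threshold on both sides. The coefficient of variation between libraries was 19.5% and 20.3%, where read counts alone would give 1.27% and 1.19% if every read were a separate molecule. The Hcst gene is transcribed toward Tyrobp and ends 126 bases away. It had 219 to 603 counts, where Tyrobp had 4257 to 9274.

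**Figure D1:**
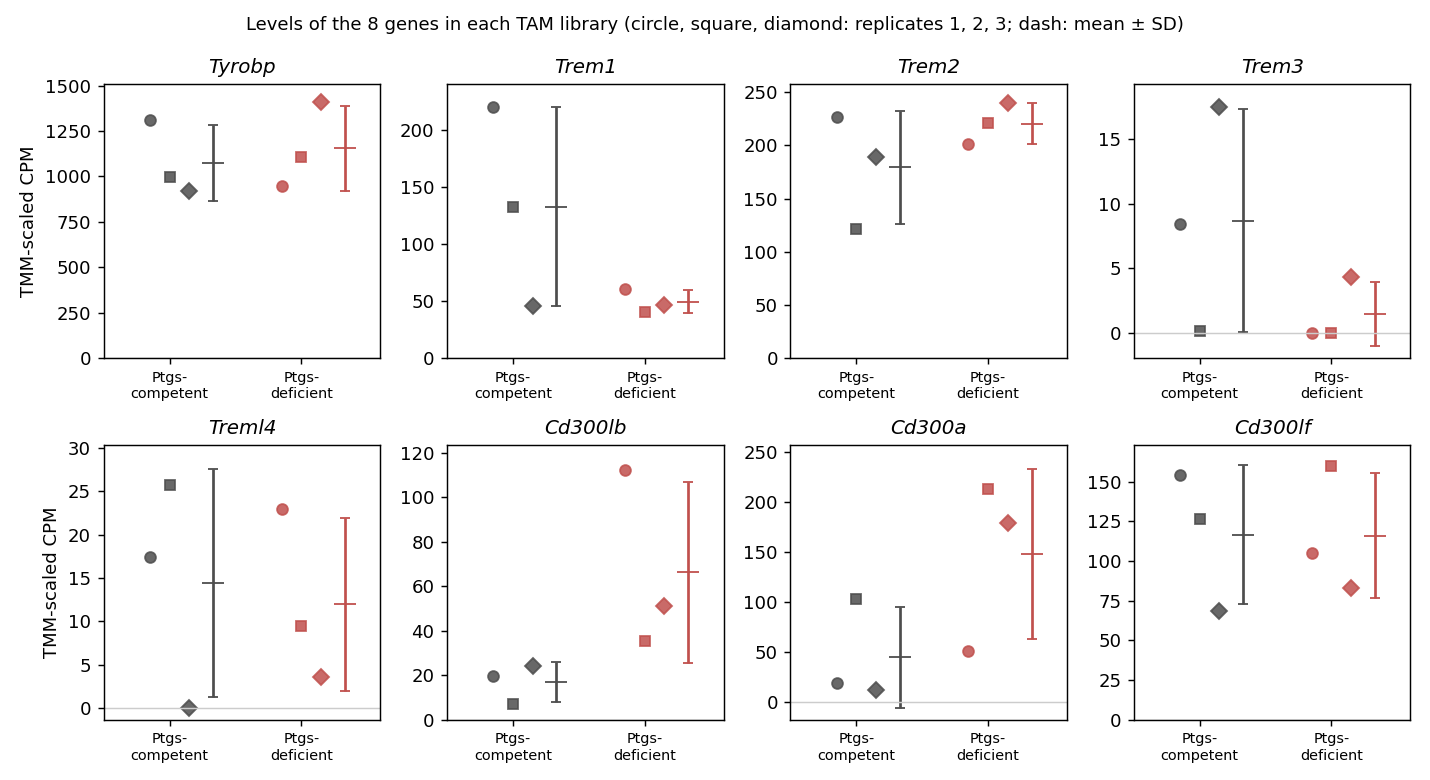
TMM-scaled CPM (y axes, each from its own scale) of the 8 genes in the 3 Ptgs-competent (grey) and 3 Ptgs-deficient (red) TAM libraries; symbols are libraries and the dash with bar is the mean ± SD. Tyrobp overlaps almost fully, Trem1 is high in 2 of 3 Ptgs-competent libraries, and Cd300lb is the gene whose libraries do not overlap between groups.

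Trem2 (ENSMUSG00000023992; chr17:48346401-48354147) had the highest mean of the 7 receptors in both groups. Ptgs-competent TAMs had 226, 122 and 189 CPM and Ptgs-deficient TAMs 201, 221 and 239 CPM. Ptgs-competent replicate 1 lay inside the Ptgs-deficient range and replicates 2 and 3 below it. The means were 179 ± 53.0 and 220.4 ± 19.3 CPM (SD, n = 3 each). The fitted log2 fold change was 0.30 ± 0.375 (SE), its 95% interval -0.54 to 1.13 and the adjusted p 0.9995. The interval lies within the fold threshold, as it did for Tyrobp, so a change of Trem2 as large as a call requires is outside it. Every fit that left out a library also gave a higher value in the Ptgs-deficient group, from 0.09 to 0.51.

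Trem1 (ENSMUSG00000042265; chr17:48232768-48246924) was the only gene of the 8 at an unadjusted p under 0.05, with a lower mean in Ptgs-deficient TAMs. Its level was 220.3, 133 and 45.5 CPM in Ptgs-competent replicates 1, 2 and 3, from 1382, 810 and 211 counts. The Ptgs-deficient libraries were at 60.9, 41.0 and 47.0 CPM, from 334, 344 and 227 counts. Thus 2 Ptgs-competent libraries lay above the Ptgs-deficient range, while replicate 3 lay inside it.

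The mean of Trem1 was 133 ± 87.4 CPM in the Ptgs-competent and 49.6 ± 10.3 CPM in the Ptgs-deficient libraries (SD, n = 3 each). The log2 fold change was -1.42 ± 0.635 (SE; 95% interval -2.83 to -0.0083). The unadjusted p was 0.0489 and the adjusted p 0.562, so the difference did not pass the test. Without Ptgs-competent replicate 3, the library with the low macrophage and high stroma marker sums, the log2 fold change was -1.79 (adjusted p 0.254). Leaving out replicate 1 instead gave -0.84 (adjusted p 0.723). Whether the cell content of replicate 3 accounts for its low Trem1 was not tested.

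Neutrophils also express Trem1. The summed level of 14 neutrophil markers was 628, 782 and 624 CPM in Ptgs-competent replicates 1, 2 and 3 and 457 to 532 CPM in the Ptgs-deficient libraries. Ly6g, Mpo and Elane were at 0 in all libraries, and 0 of 7 tested markers were called (0.216% of all genes). The 2 markers at an unadjusted p under 0.05 had opposite signs, S100a8 with a log2 fold change of -1.07 and Retnlg with 2.11, from 20.2, 59.9 and 16.2 CPM against 123, 114 and 180.2 CPM. The part of neutrophils in the Trem1 values was not tested.

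Since TREM1 and TREM2 pair with the same adaptor, the proportion of their transcripts was described within each library, where scaling between libraries plays no part. Trem1 made up 46.6%, 47.4% and 18.0% of the counts of the 4 TREM genes in Ptgs-competent replicates 1, 2 and 3, with exact 95% binomial intervals of 44.8% to 48.4%, 45.0% to 49.8% and 15.9% to 20.4%. In the Ptgs-deficient libraries it made up 21.4%, 15.1% and 16.0%, with intervals of 19.4% to 23.5%, 13.7% to 16.6% and 14.1% to 18.0%. These intervals cover counting error only. Trem2 took most of the rest, at 47.9%, 43.4% and 75.0% against 70.5%, 81.4% and 81.4%.

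The ratio of Trem2 to Trem1 counts was 1.03, 0.916 and 4.16 in the Ptgs-competent and 3.30, 5.39 and 5.10 in the Ptgs-deficient libraries. Ptgs-competent replicate 3 again fell among the Ptgs-deficient libraries. On the log2 scale the mean ratio was 0.65 ± 1.21 and 2.16 ± 0.39 (SD, n = 3 each), a difference of 1.51 with a 2-sided exact permutation p of 0.2, where 3 against 3 libraries can reach no less than 0.1. Without Ptgs-competent replicate 3 the difference was 2.21. The total of the 4 TREM genes was 472, 281 and 252 CPM against 285, 271 and 294 CPM, which overlap, and Tyrobp counts per TREM count were 2.78, 3.55 and 3.64 against 3.34, 4.07 and 4.80, also overlapping.

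**Figure D2:**
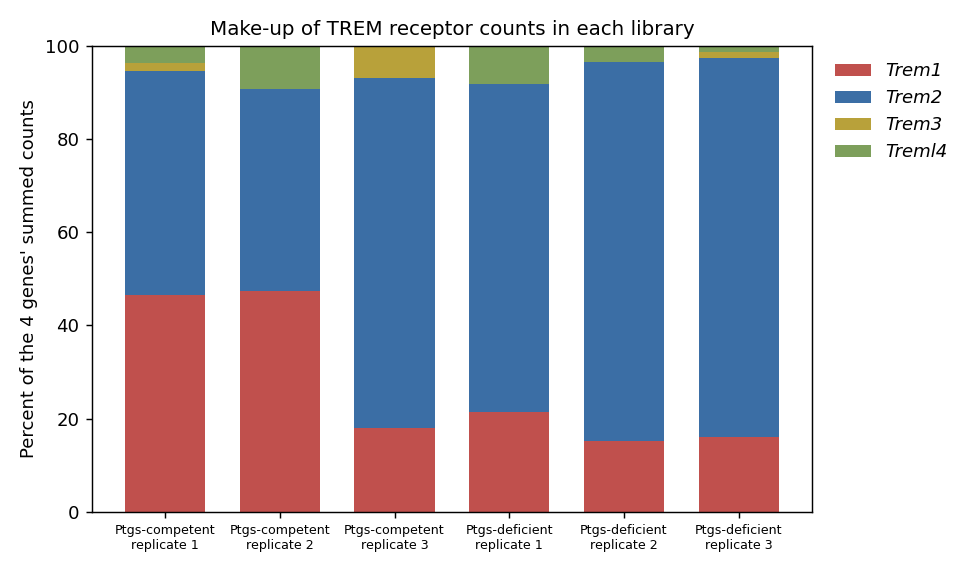
Percent of the summed counts of Trem1, Trem2, Trem3 and Treml4 (y axis) taken by each gene in each of the 6 TAM libraries (x axis, bars stacked to 100%). Trem1 takes 46.6% and 47.4% in Ptgs-competent replicates 1 and 2 and 15.1% to 21.4% in Ptgs-competent replicate 3 and the Ptgs-deficient libraries.

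Trem3 and Treml4 had the lowest means of the 8 and each had 0 counts in some library, where 3 counts correspond to 0.357 to 0.647 CPM. Trem3 (ENSMUSG00000041754), an activating receptor that begins 852 bases behind Trem1, had 53, 1 and 81 counts in Ptgs-competent TAMs against 0, 0 and 21 counts. It was high in 2 Ptgs-competent libraries and at 0 in 2 Ptgs-deficient ones, and the groups overlapped. The fitted log2 fold change was -2.57 ± 2.87 (SE; adjusted p 0.9995), and the 95% interval of -8.95 to 3.81 allows large differences either way. Without Ptgs-competent replicate 3 the value was -1.54, and with the replicate numbers as a block -4.10. Without Ptgs-deficient replicate 3 the remaining Ptgs-deficient libraries are at 0 and the fitted -8.75 is no bound.

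Treml4 (ENSMUSG00000051682; chr17:48264295-48275360), a receptor that binds dead cells and pairs with DAP12, had 109, 157 and 0 counts in Ptgs-competent TAMs against 126, 79 and 17 counts. Replicate 3 was the lowest of each group, and the groups overlapped. The means were 14.4 ± 13.1 and 11.97 ± 9.99 CPM (SD, n = 3 each). The log2 fold change was -0.26 ± 2.21 (SE; 95% interval -5.17 to 4.64; adjusted p 0.9995). Its direction turned under several settings, to 1.03 with the replicate numbers as a block and 0.47 under limma voom.

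Cd300lb (ENSMUSG00000063193; chr11:114922781-114934386), the activating CD300 receptor that carries the membrane lysine, had 19.8, 6.89 and 24.4 CPM in Ptgs-competent TAMs against 112.4, 35.2 and 51.1 CPM. Every Ptgs-deficient library lay above every Ptgs-competent one. The means were 17.0 ± 9.05 and 66.3 ± 40.7 CPM (SD, n = 3 each). The log2 fold change of 1.96 ± 0.969 (SE) exceeded the fold threshold, but its 95% interval was -0.20 to 4.12, and at an unadjusted p of 0.0703 and an adjusted p of 0.682 it did not pass the test. Without Ptgs-deficient replicate 1, the highest library, the log2 fold change was 1.36, and the lowest adjusted p over all settings was 0.39, under DESeq2.

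Cd300a (ENSMUSG00000034652; chr11:114890041-114904654), an inhibitory receptor for phosphatidylserine and phosphatidylethanolamine, had 18.6, 103 and 12.3 CPM in Ptgs-competent TAMs against 51.3, 213 and 179 CPM. Replicate 2 was the highest of each group, and Ptgs-competent replicate 2 exceeded Ptgs-deficient replicate 1, so that the groups overlapped. The means were 44.6 ± 50.5 and 148 ± 85.1 CPM (SD, n = 3 each). The log2 fold change was 1.73 ± 0.865 (SE; 95% interval -0.20 to 3.65; adjusted p 0.694). Without Ptgs-competent replicate 2 the log2 fold change was 3.25 at an unadjusted p of 0.00257 and an adjusted p of 0.249. No other fit that left out a library gave less than 1.35.

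Cd300lf (ENSMUSG00000047798; chr11:115116214-115133992), an inhibitory receptor for ceramide and other lipids, had 154, 127 and 68.8 CPM in Ptgs-competent TAMs against 105, 160 and 83.0 CPM. Replicate 3 was again the lowest of each group, and the ranges overlapped almost fully. The means were 117 ± 43.6 and 116 ± 39.4 CPM (SD, n = 3 each). The log2 fold change was -0.0079 ± 0.492 (SE; adjusted p 0.9995), and its 95% interval of -1.10 to 1.09 lies within the fold threshold. Cd300lf overlaps Rab37 on the opposite strand, which had 0 to 10 counts in any library.

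The CD300 receptors were present in different proportions across libraries. The ratio of Cd300a to Cd300lf counts was 0.121, 0.812 and 0.179 in the Ptgs-competent and 0.488, 1.33 and 2.16 in the Ptgs-deficient libraries. These ranges overlap through Ptgs-competent replicate 2. The counts of activating Cd300lb per count of both inhibitory receptors were 0.114, 0.0301 and 0.3005 against 0.719, 0.0947 and 0.195, which overlap as well. Monocytes also express these receptors. The 10 monocyte markers, all detected, summed to 1092 to 3176 CPM in Ptgs-competent and 5756 to 6151 CPM in Ptgs-deficient libraries, where the macrophage sum was higher as well. The part of cell content in the levels of Cd300lb and Cd300a was not tested.

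**Figure D3:**
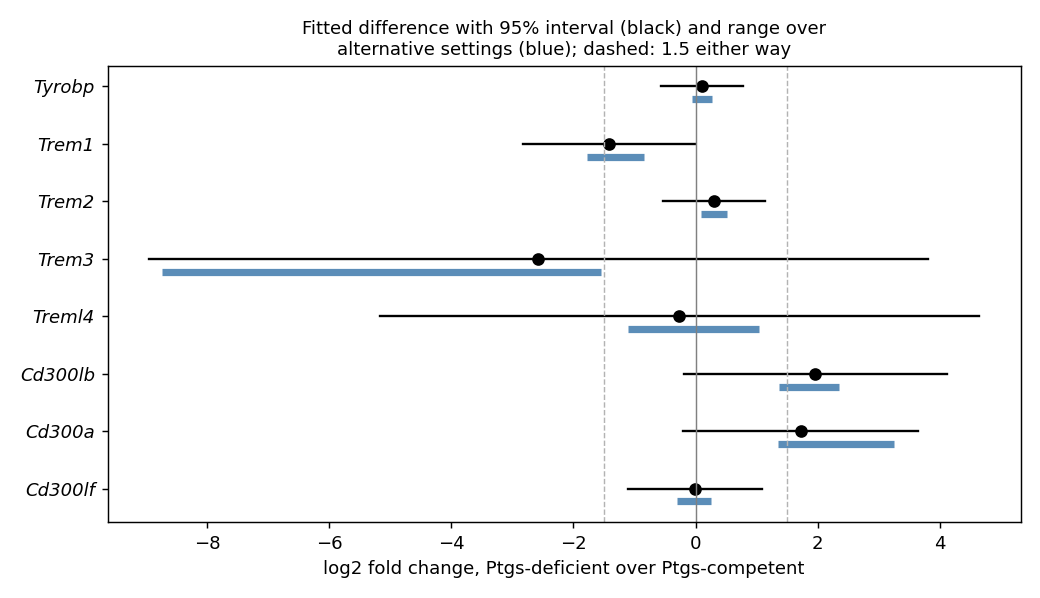
Fitted log2 fold change, Ptgs-deficient over Ptgs-competent (x axis), of the 8 genes (rows); black points and lines are the edgeR estimate and its 95% interval, blue bars the range over the alternative settings, and dashed lines the fold threshold of 1.5 either way. Intervals of Tyrobp, Trem2 and Cd300lf lie within the dashed lines, and those of Trem3 and Treml4 reach far past both.

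Because reads came from the 3′ end, a count does not scale with transcript length, and CPM were set side by side between genes. Other differences between genes in the reads that a transcript yields were not corrected. In Ptgs-competent TAMs the order of mean CPM was Tyrobp, Trem2, Trem1, Cd300lf, Cd300a, Cd300lb, Treml4 and Trem3. In Ptgs-deficient TAMs it was Tyrobp, Trem2, Cd300a, Cd300lf, Cd300lb, Trem1, Treml4 and Trem3. Of neighbors in these orders, only Tyrobp and the gene below it had ranges that did not overlap in the Ptgs-competent group, whereas in the Ptgs-deficient group Trem1 and Treml4 also kept apart, at 41.0 to 60.9 and 3.52 to 23.0 CPM.

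For each of the 8 genes the tested genes of at least 50 CPM whose log2 CPM ran closest over the 6 libraries were found, by root mean square distance after centring. The nearest to Tyrobp was Rps28 (0.0951) and to Trem2 was Slc2a1 (0.0719), the glucose transporter GLUT1. The nearest to Trem1 was Itga9 (0.197), an integrin chain, followed by Tgfbi (0.244), and the nearest to Cd300lf was Ms4a6c (0.152). Cd300a ran nearest to the cholesterol exporter gene Abcg1 (0.349) and Cd300lb to the lysosomal ATPase gene Atp13a2 (0.476). Trem3 ran nearest to Psmc4, at the largest of these distances (1.299), and Treml4 to Setd5 (0.441). With 6 libraries and 2984 or 2985 candidate genes these are descriptions of likeness only.

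Other genes of the TREM and CD300 families ranged from undetected to as abundant as Trem2. Of 12 written, 11 were in the table, 6 had 0 counts in all libraries (Treml1, Cd300c, Gm11709, Cd300lh, Gm11710 and Gm11711) and 4 were tested. Of these 4, 0 were called by the edgeR quasi-likelihood test (0.216% of all genes) and 0 had an unadjusted p under 0.05 (8.83% of all genes). AF251705, now named Cd300c2, was at 154, 207 and 97.2 CPM against 283, 197 and 238 CPM, the log2 fold change being 0.65 ± 0.40 (SE; adjusted p 0.869). Cd300ld was at 215, 47.1 and 127 CPM against 151, 285 and 247 CPM, or 0.81 ± 0.54 (SE; adjusted p 0.92). In both genes the groups overlapped. Treml2 had a log2 fold change of -2.40 ± 2.55 (SE).

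Genes listed as other receptors that use DAP12 or DAP10, together with the DAP10 gene Hcst itself, gave 0 calls among 9 tested (0.216% of all genes). Of these 9, 3 had an unadjusted p under 0.05 (8.83% of all genes) and 2 did not overlap (19% of all genes). Klrk1, which encodes the receptor NKG2D, had 0 counts in all 3 Ptgs-competent libraries against 144, 36 and 78 counts (adjusted p 0.376). Klrk1 is also an NK cell marker. The 10 NK cell markers, Klrk1 among them, summed to 2.39 to 2.802 CPM against 31.6, 35.1 and 17.2 CPM, of which Klrk1 itself made up 26.3, 4.29 and 16.1 CPM, with Ncr1, Klrd1, Prf1 and Gzmb at 0 in every library. Fcrls, an Fc receptor-like gene of macrophages, was at 204, 74.8 and 131 CPM against 229, 264 and 308 CPM, a log2 fold change of 0.96 ± 0.433 (SE) without overlap and with an adjusted p of 0.565. Whether its product pairs with DAP12 or DAP10 was not examined, and it is part of both counts above. Klra4 had a lower mean, with 371, 1 and 763 counts against 0, 49 and 8 and an adjusted p of 0.514. It belongs to a family of near-identical genes, so that its counts are uncertain.

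Among TREM ligands and genes of receptor shedding, 1 of 9 tested was called (0.216% of all genes), 4 had an unadjusted p under 0.05 (8.83% of all genes) and 3 did not overlap (19% of all genes). Clu, which encodes the TREM2 ligand clusterin, was lower in the Ptgs-deficient libraries, with 294, 522 and 2054 counts against 0, 1 and 1 counts (adjusted p 0.0159). Its highest library was Ptgs-competent replicate 3, and the call was kept in 1 of 6 fits that left out a library. The adjusted p of Clu was 0.113 with that replicate left out and at most 0.125 in the others. The melanoma and stroma markers ran alike, summing to 413, 481 and 1043 CPM against 107 to 128 CPM. The part of cell content in the Clu counts was not tested. Adam10, a protease that sheds TREM2, had 1, 35 and 7 counts against 455, 429 and 261. These groups did not overlap, but the log2 fold change of 4.65 ± 1.47 (SE) had an adjusted p of 0.2998. Ms4a6d, of a gene family linked to soluble TREM2, was at 1426 ± 640 and 709 ± 228 CPM (SD, n = 3 each) with an adjusted p of 0.488.

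In the edgeR quasi-likelihood test the signaling genes below DAP12 gave 0 calls among 32 tested (0.216% of all genes) and 0 at an unadjusted p under 0.05 (8.83% of all genes). Of these genes 17 were fitted higher and 15 lower, with a median of 0.0085 on the log2 scale. Their groups did not overlap for 3 of 32, against 19% of all genes, and with Ptgs-competent replicate 3 left out for 9 of 32 (2 higher and 7 lower), against 28.5%. Plcg2, the phospholipase downstream of SYK, was at 60.2, 64.0 and 13.4 CPM against 91.2, 93.4 and 139 CPM, the log2 fold change being 1.23 ± 0.689 (SE; adjusted p 0.789). Lcp2, which encodes the adaptor SLP-76, had 208, 47 and 3 counts against 395, 719 and 194, with 2.25 ± 1.28 (SE) and an adjusted p of 0.806. In both, Ptgs-competent replicate 3 was the lowest library. Bcl10, of the CARD9 complex, had 2.14 ± 1.03 (SE) and an adjusted p of 0.659, with overlap.

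Inhibitors of ITAM signaling also gave 0 calls among 15 tested (0.216% of all genes), with 2 at an unadjusted p under 0.05 (8.83% of all genes), 3 not overlapping (19% of all genes) and a median log2 fold change of -0.61. With Ptgs-competent replicate 3 left out, 6 of 15 did not overlap (2 higher and 4 lower), against 28.5% of all genes. Ubash3b, a phosphatase that acts on SYK, was at 129, 148 and 114 CPM against 49.1, 72.6 and 42.6 CPM, lower in every Ptgs-deficient library, the log2 fold change being -1.25 ± 0.50 (SE; adjusted p 0.456). Csk, the kinase that restrains Src family kinases, was at 114, 80.9 and 46.6 CPM against 154, 179 and 181 CPM, higher in every Ptgs-deficient library, with 1.09 ± 0.464 (SE) and an adjusted p of 0.511. The adaptor gene Dok3 had -1.31 ± 0.89 (SE) and an adjusted p of 0.922. The list thus held values of both signs, no gene of it passed the test, and the list as a whole was not tested.

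Genes that mark TREM2-high macrophages in other tissues gave 1 call among 19 tested (0.216% of all genes), with 6 at an unadjusted p under 0.05 (8.83% of all genes) and 7 not overlapping, 4 higher and 3 lower (19% of all genes). Lpl, which encodes lipoprotein lipase, rose, from 133, 25.8 and 146 CPM to 1441, 1530.3 and 1524 CPM, with an edgeR adjusted p of 0.035. The call was kept in 2 of 6 fits that left out a library, among them the one without Ptgs-competent replicate 3 (0.0437), and the highest adjusted p of the others was 0.17. The other named genes of this list had lower means in Ptgs-deficient TAMs but did not pass the test. The tetraspanin gene Cd63 was at 1781 ± 223 and 634 ± 145 CPM (SD, n = 3 each; log2 fold change -1.49 ± 0.303, adjusted p 0.0967), and the fatty acid binding protein gene Fabp5 at 914 ± 357 and 263 ± 89.3 CPM (SD, n = 3 each; -1.80 ± 0.423, adjusted p 0.158). In both, every Ptgs-deficient library lay below every Ptgs-competent one.

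Genes known to be induced through TREM1 gave 0 calls among 15 tested in the edgeR quasi-likelihood test (0.216% of all genes), with 4 at an unadjusted p under 0.05 (8.83% of all genes). For 6 of the 15 the groups did not overlap, all higher in Ptgs-deficient TAMs, against 19% of all genes, while the Trem1 transcript itself had the lower mean there. Cd83, a surface marker of activated antigen-presenting cells, had the smallest p, at 32.5, 72.2 and 61.6 CPM against 339.8, 278 and 397 CPM, the log2 fold change being 2.61 ± 0.433 (SE; adjusted p 0.0548). The chemokine genes Ccl2 and Cxcl2 had log2 fold changes of 2.47 and 0.89 and adjusted p of 0.111 and 0.43. With Ptgs-competent replicate 3 left out, 8 of 17 tested did not overlap, 7 higher and 1 lower, against 28.5% of all genes. These genes also respond to many other stimuli. Of 12 macrophage markers tested, 7 did not overlap, all higher in the Ptgs-deficient libraries, against 19% of all genes. Of 9 monocyte markers tested, 4 were higher and 1 lower without overlap. The part of cell content in the levels of the TREM1-induced genes was not tested.

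**Figure D4:**
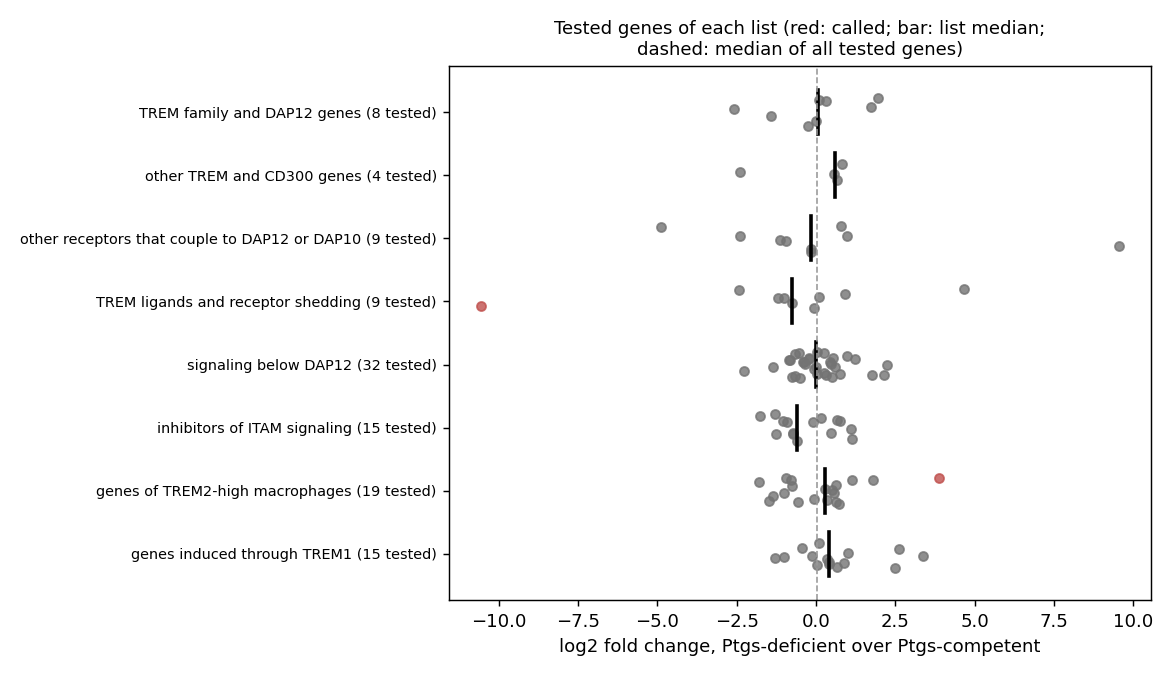
Fitted log2 fold change, Ptgs-deficient over Ptgs-competent (x axis), of each tested gene in the 8 gene lists (rows); red points were called, short bars are list medians, and the dashed line is the median of all genes tested. Clu is the called point at the far left, Lpl the called point on the right, and the medians lie between -0.77 and 0.60.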

How the data were processed

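The authors deposited 1 table of raw read counts per gene for the 6 libraries. Per the labels and the study's methods, libraries were made from 800 pg of RNA with QuantSeq 3′ FWD, the first 12 bases of reads were trimmed, reads were aligned with STAR to GRCm38 and assigned with featureCounts to the gene annotation of that build. Tool versions, strand setting and handling of multiple alignments are not given in the sources used here, so reads of overlapping or near-identical genes could be shared, and PCR copies count as reads.

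Counts were analysed with edgeR 4.0.16 in R 4.3.3. filterByExpr (minimum count 10, total 15) kept 8793 of 39179 genes. TMM-scaled libraries were compared by the quasi-likelihood test, 2-sided, with Benjamini-Hochberg adjustment over all genes tested. Calls needed an adjusted p of at most 0.05 and a log2 fold change of at least 1.5 either way, the study's thresholds. SE is the log2 fold change over the root of F. The study names a generalized linear model of edgeR, of which the quasi-likelihood form was used here. The log2 ratio of Trem2 to Trem1 counts used a prior count of 1. Computations were tested on simulated data. Labels number libraries 1 to 3 and state no batch or shared origin of equal numbers, so p-values measure the spread between these pools only.

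The 8 genes and 15 gene lists (7 of pathways, 8 of cell markers) were chosen with earlier results of these data known. Named were the 8 genes and, from each pathway list, every called gene and the 3 tested genes with the smallest p. Gene positions and coding sequences come from GENCODE on GRCm38, with 1 coding transcript per gene. Protein features were read from translated coding sequences (Biopython 1.88) in place of a protein table. Symbols are those of the deposited table. Alternatives were other tests (likelihood ratio, DESeq2 1.42.0, limma 3.58.1 voom with sample weights), RLE scaling or library totals, other filters, the replicate number as a block, and each library left out.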

Additional observations from a re-analysis of the deposited data

How the results depend on the processing

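Of the 8 genes, 0 were called under any of the 14 alternatives, while the calls over all genes moved from 19 to 241 under the likelihood ratio test, 328 under DESeq2, 123 under limma voom with sample weights and 252 without a filter. Leaving out a library gave 0 to 25 calls, and the 0 came without Ptgs-competent replicate 1, where 1231 genes had an unadjusted p under 0.05. With the replicate block 77 genes were called, 0 of them among the 8, but equal numbers do not pair the libraries, whose deviations correlated at -0.0488, -0.0224 and -0.0218. Trem1, Trem2, Trem3, Cd300a and Cd300lb kept their direction under every alternative that gave a value, and Trem3 had none under the filter of 10 CPM in 3 libraries. Treml4 turned to 0.47 under limma voom and 1.03 with the replicate block, where the medians of all genes were 0.39 and 0.26, and ranged from -1.10 to 0.46 with a library left out. Cd300lf turned to 0.019 with the replicate block and ranged from -0.31 to 0.25 with a library left out, and Tyrobp from -0.062 to 0.28. The cause was not tested. The difference in the log2 ratio of Trem2 to Trem1 ranged from 1.12 to 2.21. Trem3 ranged from -8.75 to -1.54 and is the least certain, together with Treml4. In both, some libraries had 1 count or fewer and others over 50.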
